A study of Mus musculus with 6 samples.

Results

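Hypoxia-responsive and glycolytic genes were followed in RAW 264.7 cells, a macrophage-like mouse line derived from a virus-induced tumour (spelled 264.4 in places in the labels), after 16 hours with or without bacterial lipopolysaccharide (LPS). The 39 genes were chosen by name as oxygen-regulated genes and as enzymes and carriers of glycolysis, glycogen metabolism and lactate export. The choice was made with earlier results of these data known, so comparisons with all genes are descriptive and not independent support. A probe naming one of the 39 genes alone was present for 35, and 29 had a ratio on all 6 arrays, out of 9607 genes so measured. Treated cells received LPS at 100 ng/ml together with LPS-binding protein at 100 pM, a serum protein that carries LPS to CD14, and untreated cells were cultured for the same 16 hours. Both came from the same transformed line, and no source used here gives the oxygen level or glucose supply of the cultures. Each of 6 dual-colour arrays compared total RNA of both kinds of cells, with treated RNA in Cy5 on 3 arrays and in Cy3 on 3, and each orientation held sets numbered 1 to 3.

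Cells sense oxygen through hydroxylases that mark the transcription factor subunit HIF-1α, encoded by Hif1a, for destruction by the von Hippel-Lindau ubiquitin ligase. When oxygen falls, HIF-1α escapes, pairs with its partner ARNT and binds a short DNA core, the hypoxia response element, near genes for glucose uptake, glycolysis, lactate export, mitochondrial turnover and blood vessel growth. In macrophages LPS is known to raise Hif1a transcription through NF-κB and to shift metabolism towards glycolysis, so these genes are a common readout of macrophage activation.

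Values are log2 ratios of treated over untreated RNA on the same array. A set value is the mean of its 2 orientations, and a gene is given as the mean of the 3 set values ± SD (n = 3). Fits that leave out a set rest on 2 set values, so their p-values depend largely on the variance shared over genes. Arrays were joined into sets by number alone, and the numbers are not shown to pair the arrays. The direction of the deposited ratios is not stated and was read as Cy5 divided by Cy3; this is likely, since test RNA is described as Cy5-labelled. A ratio holds no absolute level, so levels of different genes cannot be ranked, and in a ratio of bulk RNA fewer cells making a transcript and less of it per cell cannot be told apart. Whether sets are separate cultures is not said in the labels, and p-values therefore reflect no more than the scatter of these samples, possibly technical. The array number limits the precision. Ratios were missing, deposited as exact 0, for 9.56% to 12.86% of probes per array. Arrays of one orientation correlated at 0.771 to 0.839 and arrays of opposite orientation at 0.622 to 0.852 over probes, which are not independent replicates. Of 9 macrophage marker names, Emr1 and Itgam were not among the probe symbols, which does not show that the genes lack a probe under another name. The other 7, Adgre1, Cd68, Csf1r, Lyz2, Fcgr1, Spi1 and Mertk, had a ratio on every array, and 5 were higher and 1 lower in treated cells. Of 15 measured markers of T cells, B cells, fibroblasts and epithelium, 3 (Cd4, Cd79a and Dcn) were higher and 0 lower in limma. At an unadjusted p under 0.05, 0 were lower as well. Over all 9607 genes, 16.8% were higher and 14.6% lower at an adjusted p under 0.05 in limma. Whether any of these markers is expressed cannot be read from ratios.

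In treated cells most of these genes were lower. Of the 29 measured genes, 18 fell and 4 rose at an adjusted p under 0.05 in limma, where 14.6% of all 9607 genes fell, 16.8% rose and 31.4% changed either way. The genes that fell were Egln3, Adm, Bnip3, Higd1a, Gbe1, Slc16a3, Bnip3l, Ddit4, Pfkm, Ak4, Ankzf1, Ldha, Fam162a, Wsb1, Gys1, Pfkl, Slc16a1 and P4ha2, and those that rose were Pfkfb3, Hif1a, P4ha1 and Pgm2. The median of the 29 genes was -0.45 on the log2 scale, against -0.01 over all genes tested, and 24 of the 29 lay below 0, against 51.9% of all genes. At least 2-fold falls that passed the test were seen in 3 of the 29 genes (0.781% of all genes) and at least 2-fold rises in 1 (3.67% of all genes). The ratio had one sign on all 6 arrays in 18 of the 29 genes, 14 below 0 and 4 above, as in 35.6% of all genes. Most changes were modest, since 15 of the 18 falls were smaller than 2-fold.

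**Figure D1:**
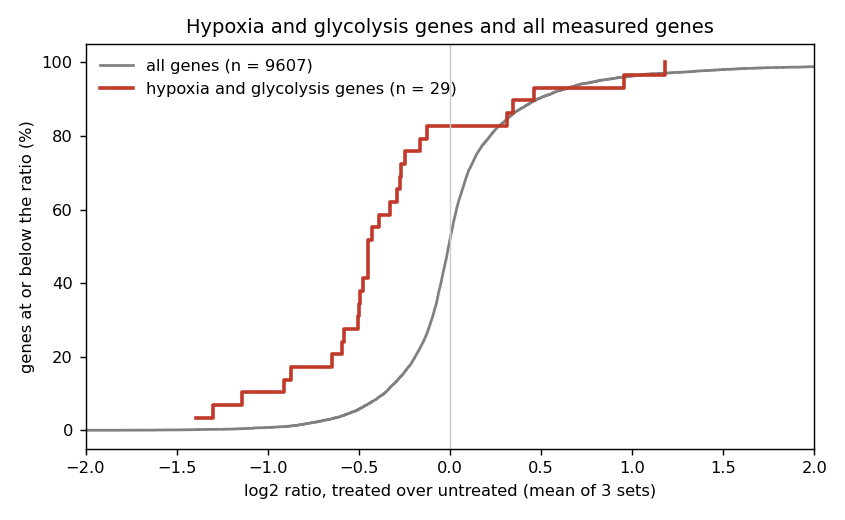
Cumulative share (%) of genes at or below a given log2 ratio of treated over untreated RNA (mean of 3 sets), for the 29 hypoxia and glycolysis genes (red) and all 9607 measured genes (grey); all genes beyond -2 and 2 are outside the plotted range. From its lowest gene (-1.39) up to 0, the red curve lies left of the grey one, with medians of -0.45 and -0.01.

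**Figure D2:**
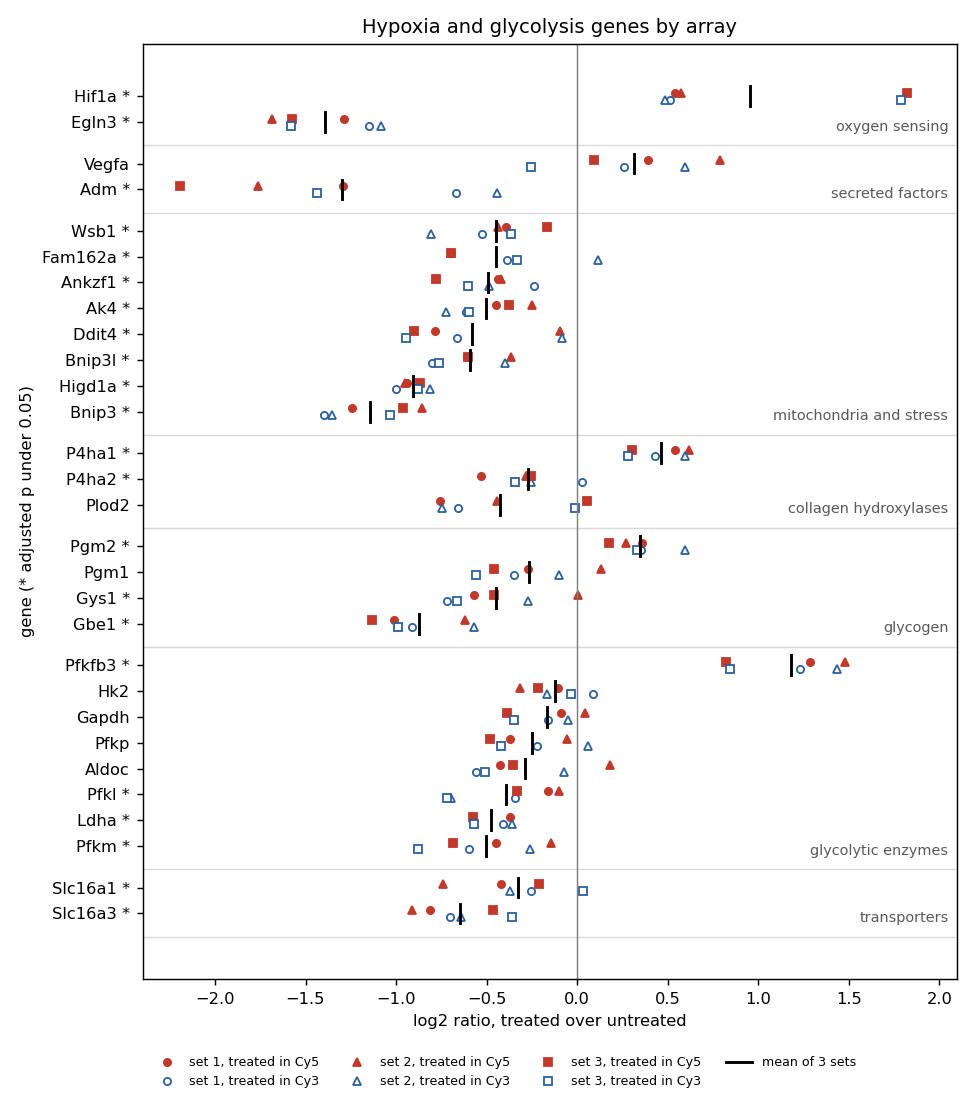
Log2 ratio of treated over untreated RNA on each of the 6 arrays for the 29 genes, ordered by role; filled red symbols are arrays with treated RNA in Cy5, open blue symbols arrays with treated RNA in Cy3, shapes are sets, and the black bar is the mean of the 3 sets. All 8 genes of mitochondria and stress have means below 0, though Fam162a lies above 0 on the Cy3 array of set 2 (0.12). Hif1a and Pfkfb3 lie above 0 on every array, and the 2 set 3 points of Hif1a stand away from its other 4.

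The 250 bases before the start of transcription were read for the letters ACGTG and GCGTG, the 2 forms of the hypoxia response element core, on both strands. RefSeq promoters of GRCm38.p6 were matched by symbol for 27 of the 29 genes. ACGTG stood before at least 1 start of 19 of these 27 genes (70.4%), against 1726 of 7641 measured genes with an entry (22.6%). Counted by start site, it was found in 21 of 38 windows (55.3%), against 1857 of 9683 windows of measured genes (19.2%) and 5444 of all 32851 windows of that length (16.6%). GCGTG was found for 18 of the 27 genes (66.7%), against 43.5% of measured genes. The median share of G and C was 60.8% for the 27 genes and 57.6% for measured genes. ACGTG was present for 12 of the 17 genes with an entry that fell, for 4 of the 4 that rose and for 3 of the 6 that were not called, so genes that moved in opposite directions both carried it. These genes were gathered as hypoxia-responsive by name, the match is of letters only, and binding was not measured.

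Upstream windows of 5 genes are shown because they carry the core before genes that fell (Bnip3, Slc16a3 and Ldha) and before genes that rose (Pfkfb3 and Hif1a); they were picked after the values were seen. Each runs 5′ to 3′ along the gene and ends at the base before the start, and capitals mark ACGTG or its complement CACGT, which overlap in the palindrome CACGTG. The windows are chr7:138909507-138909756 (minus strand) for Bnip3, chr11:120948817-120949066 (plus strand) for Slc16a3, chr7:46845554-46845803 (plus strand) for Ldha, chr2:11502091-11502340 (minus strand) for Pfkfb3 and chr12:73907617-73907866 (plus strand) for Hif1a, all in GRCm38.p6. Where RefSeq lists several starts, the one with most matches is shown.
Bnip3: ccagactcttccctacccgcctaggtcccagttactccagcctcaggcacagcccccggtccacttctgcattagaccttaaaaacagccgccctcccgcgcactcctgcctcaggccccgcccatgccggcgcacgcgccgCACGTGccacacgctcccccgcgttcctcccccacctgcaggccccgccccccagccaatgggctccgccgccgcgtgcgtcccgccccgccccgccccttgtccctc
Slc16a3: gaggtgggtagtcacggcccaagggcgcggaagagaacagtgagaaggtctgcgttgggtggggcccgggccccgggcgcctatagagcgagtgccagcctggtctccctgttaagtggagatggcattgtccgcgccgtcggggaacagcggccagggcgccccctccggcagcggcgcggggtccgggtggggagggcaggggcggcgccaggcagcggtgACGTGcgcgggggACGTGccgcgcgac
Ldha: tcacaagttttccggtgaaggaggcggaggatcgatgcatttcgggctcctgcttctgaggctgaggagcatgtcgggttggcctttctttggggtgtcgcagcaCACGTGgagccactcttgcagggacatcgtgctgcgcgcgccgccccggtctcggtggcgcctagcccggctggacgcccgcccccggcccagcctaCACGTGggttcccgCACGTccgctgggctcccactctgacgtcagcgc
Pfkfb3: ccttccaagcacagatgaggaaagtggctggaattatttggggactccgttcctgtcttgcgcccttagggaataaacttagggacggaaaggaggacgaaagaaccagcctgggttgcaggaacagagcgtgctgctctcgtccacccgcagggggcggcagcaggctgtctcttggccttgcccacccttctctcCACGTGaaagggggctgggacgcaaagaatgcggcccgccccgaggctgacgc
Hif1a: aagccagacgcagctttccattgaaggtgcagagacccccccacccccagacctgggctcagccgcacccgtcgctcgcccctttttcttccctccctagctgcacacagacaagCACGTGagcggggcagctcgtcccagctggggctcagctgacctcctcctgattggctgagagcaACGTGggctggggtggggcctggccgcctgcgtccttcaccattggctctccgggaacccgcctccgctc
The Slc16a3 window holds the core at positions -27 and -14, counted from the start. The Ldha window has 5 matches, counting both strands of each palindrome, and the Hif1a window 3.

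Hif1a, the oxygen-regulated subunit of HIF-1, rose 1.94-fold (log2 0.95 ± 0.74, adjusted p = 0.0236 in limma), with 0.53 in set 1, 0.53 in set 2 and 1.81 in set 3. It was above 0 on all 6 arrays, but its size rested on the set. Both set 3 arrays stood at 1.82 and 1.79, and the other 4 between 0.48 and 0.57. The contrast of set 3 against the mean of sets 1 and 2 was 1.28 (95% interval 1.09 to 1.47, adjusted p = 0.0111 in limma), a contrast called for 2.47% of all genes (2.44% higher and 0.0312% lower in set 3). Without set 3 the value of Hif1a was 0.53 (adjusted p = 0.000565). With robust moderation of the variances it no longer passed (adjusted p = 0.187). Egln3, a prolyl hydroxylase that marks HIF-1α and is itself a classic hypoxia-induced gene, fell 2.63-fold, the most of the 29 genes (log2 -1.39 ± 0.18, adjusted p = 6.77e-05). Its set values of -1.22, -1.38 and -1.58 lay close together and well below 0, and no array stood above -1.08. The ACGTG core in the Egln3 window begins at position -229, counted from the start.

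Secreted factors were represented by Adm and Vegfa. Adm encodes adrenomedullin, a vasodilator peptide, and fell 2.46-fold (log2 -1.30 ± 0.45, adjusted p = 0.0011), with -0.98, -1.11 and -1.81 in sets 1 to 3. Its 2 probes did not behave alike. One stood at -1.47, -1.70 and -2.63 in the 3 sets, with nearly equal means in the Cy5 and Cy3 orientations (-1.95 and -1.91). The other averaged -1.55 with treated RNA in Cy5 and 0.21 with treated RNA in Cy3, so its mean of -0.67 joins opposite readings. Vegfa, the main angiogenic growth factor and a textbook HIF-1 target, did not pass (log2 0.31 ± 0.39, 95% interval -0.02 to 0.64, adjusted p = 0.145). It was at 0.33 and 0.69 in sets 1 and 2 and at -0.08 in set 3. Without set 3, on 2 set values, it stood at 0.51 and passed (adjusted p = 0.00166). Set 3 against the others gave -0.59 (adjusted p = 0.0645).

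Of the mitochondrial and stress genes, 8 of 8 measured fell, against 14.6% of all genes, with a median of -0.54. Bnip3, a mitochondrial outer membrane protein that recruits the autophagy machinery, fell 2.21-fold (log2 -1.14 ± 0.16, adjusted p = 0.000135), with -1.32, -1.11 and -1.0 in sets 1 to 3. Its relative Bnip3l, the mitophagy receptor also called Nix, fell 1.51-fold (log2 -0.59 ± 0.18, adjusted p = 0.00278), with -0.71, -0.38 and -0.68. A second Bnip3 probe had ratios on 3 arrays only, all below 0 with a mean of -0.97, and a second Bnip3l probe averaged -0.62 over 5 arrays. All array values of both genes, on either probe, were thus below 0.

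Higd1a, a hypoxia-induced protein of the inner mitochondrial membrane, fell 1.88-fold (log2 -0.91 ± 0.05, adjusted p = 0.000152), and its sets at -0.97, -0.88 and -0.87 hardly differed. Ak4, a mitochondrial adenylate kinase, was similarly even across sets, at -0.53, -0.49 and -0.49 (log2 -0.50 ± 0.03, adjusted p = 0.00186). Fam162a, a mitochondrial protein linked to cell death under hypoxia, was at -0.54, -0.29 and -0.52 (log2 -0.45 ± 0.14, adjusted p = 0.00589). With the Cy3 orientation alone it stood at -0.20 and lost its call (adjusted p = 0.234), and the Cy3 array of set 2 was above 0, at 0.12. Ankzf1, which acts in the quality control of stalled ribosomes, was at -0.34, -0.45 and -0.69 (log2 -0.49 ± 0.18, adjusted p = 0.0058).

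Outside mitochondria, Ddit4, an inhibitor of mTORC1 also called REDD1, had a mean of -0.58 ± 0.44 (adjusted p = 0.0273) that joined unlike sets. It was at -0.72 and -0.93 in sets 1 and 3 and near 0, at -0.09, in set 2. Its call ended without set 1 (adjusted p = 0.125) and under robust moderation (adjusted p = 0.0575). Wsb1, a substrate receptor of a ubiquitin ligase, was at -0.46, -0.62 and -0.27 (log2 -0.45 ± 0.18, adjusted p = 0.00857). All 6 of its array values were below 0, and the call was lost with the Cy5 orientation alone (adjusted p = 0.0686).

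**Figure D3:**
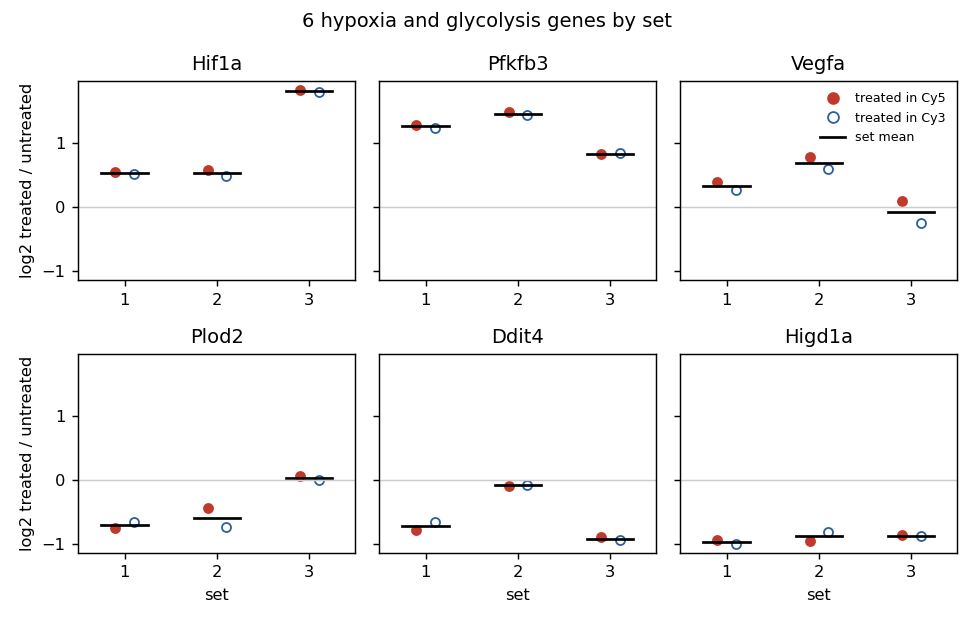
Log2 ratio of treated over untreated RNA (y axis) by set (x axis) for 6 genes; red filled points are arrays with treated RNA in Cy5, blue open points arrays with treated RNA in Cy3, and bars are set means. Set 3 stood above the others for Hif1a (1.81) and Plod2 (0.02) and below them for Pfkfb3 (0.83) and Vegfa (-0.08), set 2 stood near 0 for Ddit4 (-0.09), and the 3 sets of Higd1a were close.

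Collagen hydroxylases, which modify collagen in the endoplasmic reticulum and use oxygen and iron, did not move as one. P4ha1, the catalytic subunit of a prolyl hydroxylase, rose 1.38-fold (log2 0.46 ± 0.16, adjusted p = 0.00645), with 0.48, 0.61 and 0.29 in the 3 sets. Its isoenzyme P4ha2 was a little lower in treated cells, at -0.25, -0.27 and -0.30 (log2 -0.27 ± 0.02, adjusted p = 0.0221). That call was lost without set 1, 2 or 3 (adjusted p = 0.0887, 0.0763 and 0.0609), in either orientation alone and with the set number as a random block (adjusted p = 0.0676). Plod2, a lysyl hydroxylase, was at -0.71 and -0.59 in sets 1 and 2 and at 0.02 in set 3 (log2 -0.43 ± 0.39, 95% interval -0.76 to -0.09, adjusted p = 0.0598). Without set 3, on 2 set values, it stood at -0.65 and passed (adjusted p = 7.95e-05). It did not pass without set 1 (-0.29, adjusted p = 0.273) or set 2 (-0.34, adjusted p = 0.232). Keeping exact zeros as ratios gave -0.22 (adjusted p = 0.101), but this also averaged in a second probe that read in opposite directions by dye. Plod2 passed with a replicate block (adjusted p = 0.0465), with no block (adjusted p = 0.0289), in the Cy3 orientation alone (adjusted p = 0.0401) and after quantile normalization (adjusted p = 0.0482).

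Glycogen genes gave 2 falls and 1 rise among 4. Gbe1, the branching enzyme that builds glycogen's branch points, fell 1.83-fold (log2 -0.87 ± 0.25, adjusted p = 0.001), with -0.96, -0.59 and -1.06 in sets 1 to 3. Gys1, the glycogen synthase of muscle and most other tissues, was at -0.64, -0.14 and -0.56 (log2 -0.45 ± 0.27, adjusted p = 0.0204). Its call ended without set 1 (adjusted p = 0.114) and in the Cy5 orientation alone (adjusted p = 0.122). A second Gys1 probe with 5 ratios averaged -0.39. The phosphoglucomutases, which interconvert glucose 1-phosphate and glucose 6-phosphate, had opposite signs. Pgm2 (Entrez 66681) rose 1.27-fold (log2 0.35 ± 0.09, adjusted p = 0.0117), a call lost without set 1 (adjusted p = 0.0623), without set 2 (adjusted p = 0.06) and in the Cy5 orientation alone (adjusted p = 0.103). Pgm1 (Entrez 72157) did not pass, at -0.31, 0.01 and -0.51 (log2 -0.27 ± 0.26, 95% interval -0.52 to -0.01, adjusted p = 0.108), and passed without set 2 at -0.41 (adjusted p = 0.0301). The identifiers are given because these mouse symbols have been exchanged over time, and both appear among the other's synonyms in the gene table.

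Of 8 measured glycolytic enzymes, 1 rose (Pfkfb3), 3 fell (Ldha and the phosphofructokinase subunits Pfkm and Pfkl) and 4 did not pass. Rises made up 12.5% and falls 37.5% of the 8, against 16.8% and 14.6% of all genes. Pfkfb3 makes fructose 2,6-bisphosphate, the strongest activator of phosphofructokinase, and rose 2.27-fold, the largest rise of the 29 genes (log2 1.18 ± 0.32, adjusted p = 0.000528). It was at 1.26, 1.46 and 0.83 in sets 1 to 3, lowest in set 3. Set 3 against the others gave -0.52 for Pfkfb3 (adjusted p = 0.0572), which passed after quantile normalization (-0.65, adjusted p = 0.037). Of the 3 phosphofructokinase subunits, the rate-setting enzyme that Pfkfb3 activates, Pfkm was at -0.52, -0.20 and -0.78 (log2 -0.50 ± 0.29, adjusted p = 0.0149). Pfkl was at -0.25, -0.40 and -0.52 (log2 -0.39 ± 0.14, adjusted p = 0.0102). Pfkp did not pass, at -0.30, 0.00 and -0.45 (log2 -0.25 ± 0.23, 95% interval -0.48 to -0.01, adjusted p = 0.107). The Pfkm call was lost without set 1 (adjusted p = 0.0677), both called subunits lost theirs in the Cy5 orientation alone (adjusted p = 0.0572 and 0.218), and Pfkp passed without set 2 at -0.37 (adjusted p = 0.0352).

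Ldha, the lactate dehydrogenase subunit that favours pyruvate reduction, fell 1.39-fold (log2 -0.48 ± 0.09, adjusted p = 0.00322), with -0.39, -0.47 and -0.57 in the 3 sets. Hk2, the inducible hexokinase, did not pass (log2 -0.12 ± 0.12, 95% interval -0.31 to 0.06, adjusted p = 0.292). Gapdh, often used as a reference gene, did not pass either (log2 -0.17 ± 0.19, 95% interval -0.38 to 0.05, adjusted p = 0.224). Its 10 probes with 6 ratios averaged between -0.28 and -0.11, and the sets stood at -0.13, near 0 and at -0.37. Aldoc, an aldolase isoenzyme, was at -0.49, 0.05 and -0.43 (log2 -0.29 ± 0.30, adjusted p = 0.108) and passed without set 2 at -0.46 (adjusted p = 0.015). The 2 Aldoc probes disagreed. One averaged -0.81 and the other 0.23 over the 6 arrays, so the gene's mean describes neither.

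Of 3 measured lactate carriers, Slc16a3 and Slc16a1 fell, as did 14.6% of all genes. Slc16a7, the carrier MCT2 from the list of other glycolysis genes, did not pass. Slc16a3, the hypoxia-induced exporter MCT4, fell 1.57-fold (log2 -0.65 ± 0.21, adjusted p = 0.00238), with -0.76, -0.78 and -0.41 in sets 1 to 3 and all 6 arrays below 0. Slc16a1, the carrier MCT1 that moves lactate either way, was at -0.34, -0.56 and -0.09 (log2 -0.33 ± 0.23, adjusted p = 0.0461). Its call was close to the threshold and ended without set 1 (adjusted p = 0.154) or set 2 (adjusted p = 0.204), with exact zeros kept (adjusted p = 0.06) and in the Cy3 orientation alone (adjusted p = 0.193). Slc16a7, named after its value was seen, was at -0.13, -0.11 and 0.46 (log2 0.07 ± 0.33, 95% interval -0.22 to 0.37, adjusted p = 0.733).

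Several core enzymes were not measured. Aldoa, Hk1, Pgam1, Pgk1 and Pkm had probes with no ratio on any array, so 5 of the 35 genes on the array gave no value. Of the 66 probes of the 35 genes, 26 (39.4%) lacked a ratio somewhere among the 6 arrays, a share that was 15.3% over named probes as a whole. Gapdh alone held 15 of those 26 among its 25 probes, and without Gapdh the share was 11 of 41 (26.8%). Hk3, Gpi1, Pfkfb4 and Pdk1 were not named by a probe of a single symbol and are not analysed here. Slc2a1, the glucose transporter GLUT1, had 5 ratios, all above 0. With treated RNA in Cy5 it stood at 0.64, 0.80 and 0.43 in sets 1 to 3, and in Cy3 at 0.09 and 0.16 in sets 1 and 2. A limma fit that kept partly measured genes gave 0.42 (adjusted p = 0.00549). In it set 3 rested on its Cy5 array alone, so the difference between orientations is not cancelled there.

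**Figure D4:**
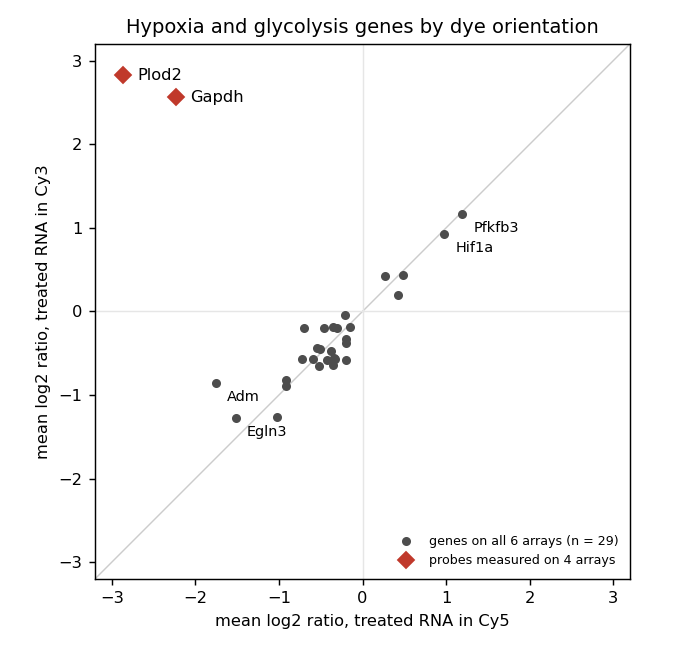
Mean log2 ratio of treated over untreated RNA with the treated sample in Cy5 (x axis) and in Cy3 (y axis); grey points are the 29 genes and red diamonds 2 probes measured on 4 arrays, and the line marks equal values. Most genes lie near the line, Adm lies off it (-1.75 and -0.85), and the probes of Plod2 (-2.86 and 2.83) and Gapdh (-2.24 and 2.57) read in opposite directions.

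The dye orientation was compared for every gene. Of the 29 genes, 0 differed between orientations after adjustment in limma, as did 0% of all 9607 genes, while 9 of the 29 (31.0%) and 2273 of all genes (23.7%) had an unadjusted p under 0.05. The largest dye coefficient among the 29 genes (mean Cy5 minus mean Cy3, divided by 2) was that of Adm, at -0.45 (adjusted p = 0.148). Turned by the labels, a gene with equal readings in both orientations has a coefficient of 0, as Higd1a (-0.01) and Pfkfb3 (0.01) nearly had. A p that misses the threshold does not show that the orientations read alike.

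The sets were compared in the same way. Set 3 differed from sets 1 and 2 in 1 of the 29 genes, Hif1a, against 2.47% of all genes, 234 of which were higher and 3 lower in set 3. At an unadjusted p under 0.05, 17 of the 29 genes (58.6%) and 1672 of all genes (17.4%) differed. The error of this contrast is the spread between the 2 arrays of a set, which may share RNA extracts. Set 3 held the lowest of the 3 set values in 16 of the 29 genes and the highest in 7. The medians of the 29 genes were -0.46, -0.29 and -0.49 in sets 1, 2 and 3, and 24, 21 and 24 of them lay below 0. The Hif1a ratio was highest in set 3. A link between Hif1a and the other genes was not tested, and 3 sets are too few to decide it.

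Other genes of these pathways were read from lists of 129 further names, also drawn up with earlier results of these data known. Some names were older symbols, and 72 were measured on all 6 arrays. Of these, 21 fell and 6 rose (29.2% and 8.3%, against 14.6% and 16.8% of all genes), with a median of -0.10, against -0.01 over all genes. Among regulators of HIF, 3 of 11 fell and 0 rose in limma (0 also at an unadjusted p under 0.05). Vhl, the receptor of the ligase that destroys HIF-1α, was at -0.52, -0.34 and -0.86 (log2 -0.57 ± 0.27, adjusted p = 0.00729). Cul2, the scaffold of that ligase, was at -0.35, -0.62 and -0.32 (log2 -0.43 ± 0.16, adjusted p = 0.00862) and lost its call in the Cy3 orientation alone (adjusted p = 0.0998) and with a replicate block (adjusted p = 0.0546). Other parts of that ligase did not pass in limma. Rbx1 was at -0.23 ± 0.12 (adjusted p = 0.0646) and Eloc at 0.37 ± 0.49 (adjusted p = 0.146). Epas1, encoding HIF-2α, was measured and did not pass (log2 0.03 ± 0.14).

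Of 25 other hypoxia-induced genes, 8 fell (32.0%, against 14.6% of all genes) and 3 rose (12.0%, against 16.8%). Their median was -0.01, against -0.01 over all genes. S100a4, a calcium-binding protein of motile cells, fell 2.62-fold (log2 -1.39 ± 0.15, adjusted p = 4.99e-05) and Ccng2, an atypical cyclin, 2.13-fold (log2 -1.09 ± 0.32, adjusted p = 0.000783). Pdgfb, a growth factor subunit, rose 2.67-fold (log2 1.42 ± 0.04, adjusted p = 1.97e-05), and Plin2, a coat protein of lipid droplets, rose 1.76-fold (log2 0.81 ± 0.15, adjusted p = 0.000494). Rises were thus no more frequent in this list than among all genes, and the genes named are the called ones that moved most each way.

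Of 19 other glycolysis and pyruvate genes, 6 fell and 0 rose in limma (0 also at an unadjusted p under 0.05), with a median of -0.16. Falls made up 31.6% of the 19, where 14.6% of all genes fell and 16.8% rose. Eno3, the enolase of muscle, fell 2.72-fold (log2 -1.44 ± 0.12, adjusted p = 2.96e-05), with -1.41, -1.35 and -1.57 in the 3 sets. Slc2a3, the glucose transporter GLUT3, fell 2.1-fold (log2 -1.07 ± 0.48, adjusted p = 0.00317), with -1.52, -0.57 and -1.12.

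Of 9 further glycogen genes, 3 rose (33.3%) and 1 fell (11.1%), against 16.8% and 14.6% of all genes. The kinase Gsk3b, which inhibits glycogen synthase, rose 1.53-fold (log2 0.61 ± 0.18, adjusted p = 0.00237). Gaa, the lysosomal glucosidase that digests glycogen, was at 0.31 ± 0.15 (adjusted p = 0.0264), a call lost without set 1 (adjusted p = 0.0775), without set 2 (adjusted p = 0.124) and in the Cy3 orientation alone, where it stood at 0.09 (adjusted p = 0.482). Epm2a, encoding the glycogen phosphatase laforin, fell 2.29-fold (log2 -1.19 ± 0.44, adjusted p = 0.00148), and its set values of -1.30, -0.71 and -1.57 were all below 0. In the pentose phosphate pathway, which makes NADPH and ribose from glucose 6-phosphate, 3 of 8 genes fell (37.5%) and 0 rose in limma. At an unadjusted p under 0.05, 1 rose. Tkt, encoding transketolase, was at -0.36 ± 0.15 (adjusted p = 0.017) and lost its call without set 3 (adjusted p = 0.0537) and in the Cy5 orientation alone (adjusted p = 0.0783). Pgd, a dehydrogenase of the same pathway, was at -0.34 ± 0.12 (adjusted p = 0.0161), stood at -0.01 in the Cy5 orientation alone (adjusted p = 0.962) and lost its call without set 1 (adjusted p = 0.0557) and set 2 (adjusted p = 0.0809).

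**Figure D5:**
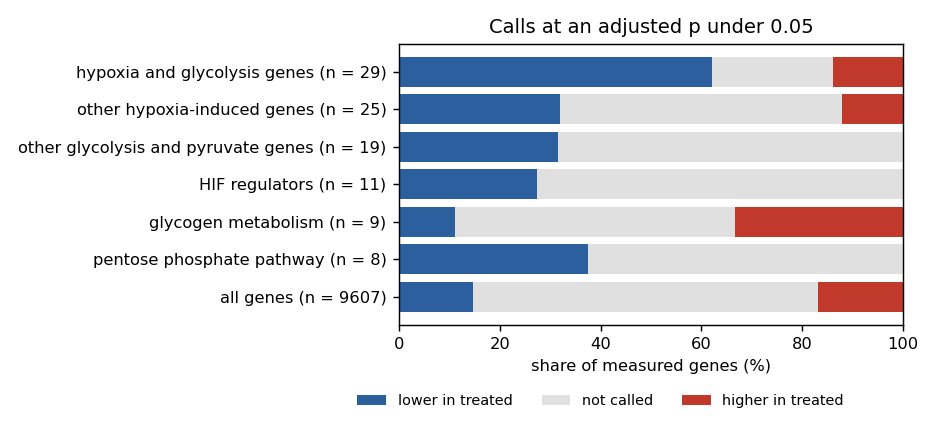
Share (%) of measured genes lower in treated cells (blue), higher (red) or not called (grey) at an adjusted p under 0.05 in limma, for the 29 hypoxia and glycolysis genes, 5 lists of other pathway genes and all 9607 genes; n is the number measured on all 6 arrays. Falls make up 62.1% of the 29 genes and 14.6% of all genes, and glycogen metabolism is the 1 list with more rises than falls.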

How the data were processed

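The deposited table holds log2 ratios, 1 column per array (scale read from signs and range); the labels give the dyes, and how the authors corrected background and normalized is not given in the sources used here. Column medians lay between -0.03 and 0.01, and the largest size equals log2 of 100 (6.644), so ratios look capped. Arrays with treated RNA in Cy3 were sign-flipped, exact 0 was taken as missing (1074 of 16281 probes were 0 on all 6), and the 13738 probes naming 1 symbol were averaged per gene over those with 6 ratios. Set means were tested against 0 with limma 3.58.1 (R 4.3.3; lmFit, eBayes, two-sided), with Benjamini-Hochberg adjustment over 9607 genes and a threshold of 0.05. Dye and set contrasts used all genes likewise. Scripts were tested on simulated data; figures used Python 3.11.15. The genes and lists were chosen with earlier results of these data known. All measured genes of the main list are described. From the other lists, these are the 2 called genes that rose and fell most. Epas1, Rbx1, Eloc and Slc16a7 were added after their values were seen. Alternatives covered exact zeros, partly measured genes, probe averaging, centring, quantile normalization, moderation, the block, orientations and sets.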

Additional observations from a re-analysis of the deposited data

Results flagged for a closer look

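Hif1a differed between sets: set 3 stood 1.28 above the mean of sets 1 and 2 on the log2 scale (1.81 against 0.53, adjusted p = 0.0111 in limma). A Plod2 probe with 4 ratios read below 0 on both arrays with treated RNA in Cy5 (-2.95 and -2.78) and above 0 on both with treated RNA in Cy3 (3.13 and 2.53), a difference of -5.7 that was not tested. A Gapdh probe with 4 ratios did the same (-2.16 and -2.31 against 2.24 and 2.90), a difference of -4.8 that was not tested. Neither probe enters a main gene value of the report. The Plod2 probe does enter the Plod2 value with exact zeros kept (-0.22). Groups of 3 arrays are too small for the check for outlying samples.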

How the results depend on the processing

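Across 13 alternatives, the counts of rises and falls stayed within 1.5 times their value. Without set 1, 2 or 3, 13 to 19 of the 29 genes fell and 3 to 5 rose, and 15 to 20 other pathway genes fell and 5 to 6 rose. Without set 1, 13 fell. Calls kept in all alternatives were those of Egln3, Adm, Bnip3, Higd1a, Gbe1, Slc16a3, Bnip3l, Ak4, Ankzf1 and Ldha (10 down) and of P4ha1 and Pfkfb3 (2 up). The median over probes could not change the value of Adm, which has 2 probes, or of the 26 genes with 1. No alternative separated the 2 unlike Adm probes. Set 3 stood apart in 2 of the 29 genes after quantile normalization, Hif1a and Pfkfb3, against 1; the cause was not tested. Deviations of same-numbered arrays correlated at 0.188, 0.05 and 0.544 in sets 1 to 3, and 2 of 6 arrays correlated best with their own number, so the numbers are not shown to pair the arrays. With no replicate block, 20 genes fell and 4 rose; with the set number as a random block (correlation 0.393), 18 fell and 4 rose. With exact zeros kept, probes at 0 on all 6 arrays still had to be left out. Signal over background is not given, which limits what a missing ratio can show.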
